A study of Mus musculus with 12 samples.

Results

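Expression of 10 genes that restrict retroelements or sense nucleic acids was examined in the mouse spleen, in naive CD4+ T cells and in resting B cells. The members were chosen by gene name from the deposited table, and all 10 names were found among its 41128 genes, each in a single row. The table holds 12 RNA-seq libraries in 4 groups of 3, namely female and male CD43- B cells and female and male CD4+CD62L+ T cells. All mice were C57BL/6J animals of 6 to 8 weeks, and per the series design each library comes from pooled mice. The naive T cells were sorted as CD62L high, CD44 low and CD25 negative. Values are adjusted TPM. How the authors adjusted them is not given in the sources used here, and comparisons of levels between genes take the TPM in their name at its word, as an abundance per transcript length.

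Retrotransposons such as intracisternal A particles, the endogenous retroviruses that the study screened for variable methylation, copy themselves through an RNA intermediate. Host cells act on these copies at several steps. Apobec3 deaminates cytosines in newly made retroviral DNA, Samhd1 hydrolyses the deoxynucleotides that reverse transcription needs, Mov10 is an RNA helicase that limits retrotransposition, and Zc3hav1 (ZAP) binds CpG-rich RNA and directs its decay. Adar edits adenosine to inosine in duplex RNA. Trex1 and RNase H2, whose subunit B is encoded by Rnaseh2b, remove DNA and RNA-DNA hybrids that could otherwise be sensed. Mb21d1 encodes cGAS, which detects cytosolic DNA and signals through STING, the product of Tmem173, whereas Mavs is the mitochondrial adaptor of the cytosolic RNA sensors.

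RefSeq promoter windows on GRCm38.p6, covering 250 bases before and 50 bases after an annotated start, were found for 8 of the 10 genes, 13 windows in all. Of these, 4 are printed here. Apobec3 and Mb21d1 had the largest differences between the cell types in the 2 directions, and the Samhd1 window and the third Adar window held further motif matches. Capitals mark matches to GAAA followed after any 2 bases by GAAA, the core of an interferon-stimulated response element, to TTCNNNGAA, the core of a gamma-activated site, or to GGAA followed after any 2 bases by GAAA, a composite of an ETS and an IRF site. Both strands were searched.
Apobec3, chr15:79892158-79892457, plus strand: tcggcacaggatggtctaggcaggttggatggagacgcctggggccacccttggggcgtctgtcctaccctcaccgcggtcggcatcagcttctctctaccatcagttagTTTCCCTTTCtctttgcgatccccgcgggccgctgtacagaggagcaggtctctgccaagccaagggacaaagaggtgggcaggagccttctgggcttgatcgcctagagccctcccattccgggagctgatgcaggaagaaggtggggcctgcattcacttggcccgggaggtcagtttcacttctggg
Samhd1, chr2:157135047-157135346, minus strand: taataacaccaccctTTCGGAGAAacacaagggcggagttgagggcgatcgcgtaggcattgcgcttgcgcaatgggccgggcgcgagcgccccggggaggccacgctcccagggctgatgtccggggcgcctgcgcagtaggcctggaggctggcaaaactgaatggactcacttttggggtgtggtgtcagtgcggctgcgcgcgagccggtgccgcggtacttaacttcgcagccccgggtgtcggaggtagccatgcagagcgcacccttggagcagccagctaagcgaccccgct
Adar, chr3:89730468-89730767, plus strand: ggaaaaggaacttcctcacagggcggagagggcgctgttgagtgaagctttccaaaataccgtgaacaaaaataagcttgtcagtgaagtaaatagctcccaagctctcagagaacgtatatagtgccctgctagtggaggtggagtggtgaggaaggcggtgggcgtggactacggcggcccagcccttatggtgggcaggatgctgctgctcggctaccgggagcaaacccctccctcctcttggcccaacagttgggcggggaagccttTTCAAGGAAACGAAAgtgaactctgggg
Mb21d1, chr9:78443188-78443487, minus strand: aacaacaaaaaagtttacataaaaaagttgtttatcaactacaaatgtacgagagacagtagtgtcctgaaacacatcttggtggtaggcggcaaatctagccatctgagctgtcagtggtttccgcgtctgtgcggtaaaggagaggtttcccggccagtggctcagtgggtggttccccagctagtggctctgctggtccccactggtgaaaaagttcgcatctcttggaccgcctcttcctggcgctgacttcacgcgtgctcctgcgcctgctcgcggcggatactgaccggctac
The response element core was found in 1 of the 13 windows, that of Apobec3, where it starts 140 bases before the annotated start on the opposite strand. It occurs in 3.44% of all 32851 promoter windows. The gamma-activated core was found in 2 of the 13 windows, those of Samhd1 and Adar, against 8.3% of all windows. The composite was found in 1 window, that of Adar, against 2.72% of all windows, and there it overlaps the gamma-activated match. These matches describe letters and not binding, and no capitals appear in the Mb21d1 window because none of these motifs was found in it.

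Totals of adjusted TPM differed between libraries, from 561020 to 1453940, and protein-coding genes took 38.51% to 67.98% of a total. The sequencing depth is unknown. The summed level of the B cell markers Cd79a, Cd79b, Ms4a1 and Pax5 was 2220 to 2643 in B cells and 0.896 to 4.91 in T cells. That of the T cell markers Cd3d, Cd3e, Cd4, Lck and Tcf7 was 1017 to 1194 in T cells and 9.76 to 14.1 in B cells. Monocyte and macrophage markers (4 of 5 in the table) summed to 10.3 to 14.3 in B cells and 2.62 to 5.76 in T cells, and dendritic cell markers to 4.26 to 10.1 and 1.83 to 3.29. Lyz2 was the largest part of the former sum in B cells, with a mean of 8.89 against 0.795 in T cells. Itgam did not share this direction, with means of 1.25 in B and 1.41 in T cells. The 5 dendritic cell markers did not go together. Itgax, Flt3 and Clec9a had means of 2.48, 2.22 and 1.32 in B cells against 0.180, 0.103 and 0.00168 in T cells. Zbtb46 was higher in T cells, at 2.13 against 1.37, and Siglech was under 0.1 in every library. The part of such cells in the values below was not tested.

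The members were expressed at very different levels. In B cells Apobec3 was the highest, and its mean was 558.9 times that of Mb21d1, the lowest. In T cells Samhd1 was the highest, with 57.1 times the mean of Mb21d1. In B cells the order of mean levels was Apobec3, Samhd1, Zc3hav1, Adar, Tmem173, Trex1, Mavs, Rnaseh2b, Mov10 and Mb21d1, and the only neighbours whose libraries overlapped were Trex1 and Mavs. In T cells the order was Samhd1, Zc3hav1, Adar, Apobec3, Tmem173, Mov10, Rnaseh2b, Trex1, Mavs and Mb21d1. There, Samhd1 overlapped Zc3hav1, Adar overlapped Apobec3 and Apobec3 overlapped Tmem173. From Mov10 to Mavs each gene overlapped the next in the order, but Mov10 and Rnaseh2b lay wholly above Mavs. Apobec3 therefore led the list in B cells. In T cells its mean stood below those of Samhd1, Zc3hav1 and Adar, although its libraries overlapped those of Adar.

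**Figure D1:**
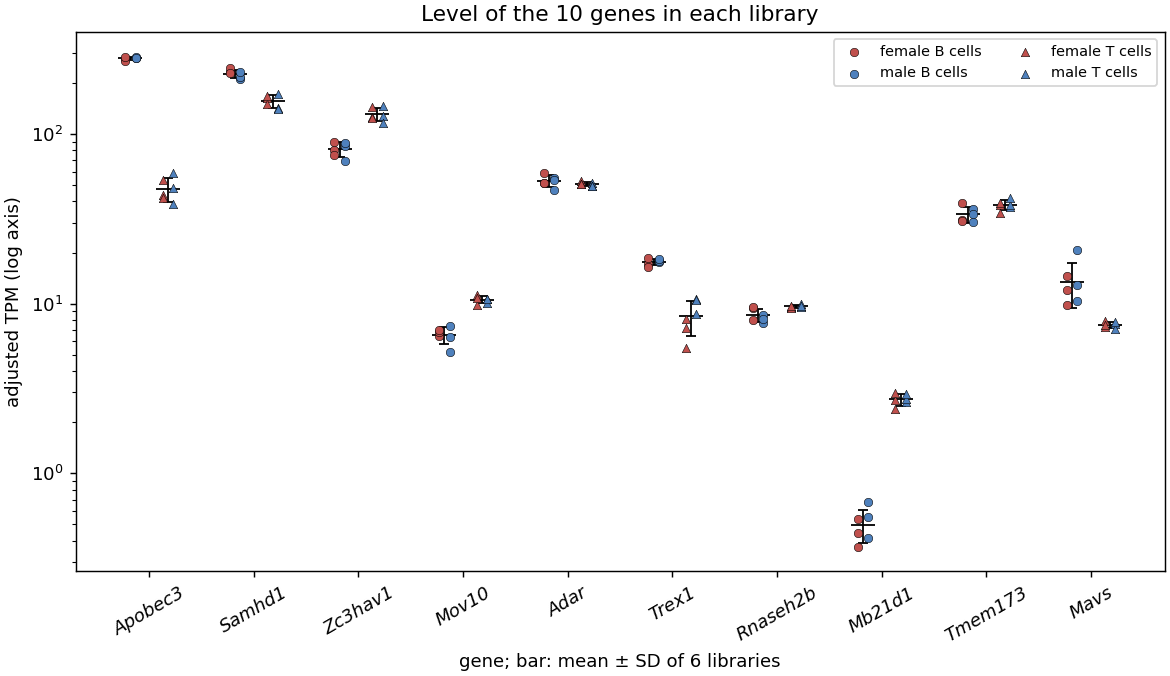
Adjusted TPM (log axis) of the 10 genes in each of the 12 libraries, with circles for B cells, triangles for T cells, red for female and blue for male libraries, and bars for the mean ± SD of the 6 libraries of a cell type. Apobec3 lies between 267.4 and 285.0 in B cells and between 38.6 and 58.6 in T cells, and Mb21d1 shows the opposite order.

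B and T cells were compared with limma on log2(adjusted TPM + 1) over all 12520 genes with a value of at least 1 in at least 3 libraries, and p-values were adjusted by the Benjamini-Hochberg method over all of them. All 10 members entered this test. Mb21d1 entered only through the T cells, since it was under 1 in every B cell library, so its passing the filter and its difference are not separate facts. Of the 10 members, 9 were past an adjusted p of 0.05, against 73.0% of all tested genes. Higher levels in B cells were found for 4 members, against 31.4% of all tested genes, and higher levels in T cells for 5, against 41.6%. The 6 B cell libraries did not overlap the 6 T cell libraries for 7 members, against 53.9% of tested genes. An absolute log2 fold change of at least 1 was reached by 3 members, Apobec3, Mb21d1 and Trex1, against 21.6%. The members had a median log2 fold change of -0.05, against -0.09 over the whole table tested. As shares, these counts were not far from those of all genes, and the members are described singly below. In bulk libraries such as these, fewer expressing cells and less RNA per cell cannot be told apart.

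Among the genes that act on the retroelement copies themselves, Apobec3 showed the largest difference. Apobec3 (ENSMUSG00000009585.12, chromosome 15, 79891659 to 79915906, plus strand) had a lowest, median and highest value of 267.4, 280.9 and 285.0 adjusted TPM in B cells. In T cells these values were 38.6, 45.9 and 58.6. All B cell libraries thus lay far above all T cell libraries, and their spread was narrow, at 278.6 ± 6.45 (SD, n = 6) against 47.4 ± 7.45 (SD, n = 6). The ratio of the means was 5.88, and the log2 fold change was 2.54 (SE 0.09, limma adjusted p = 3.2e-11). Apobec3 ranked above at least 98.2% of tested genes in each B cell library and above 83.3% to 90.0% in the T cell libraries. Its 3′ neighbour Cbx7, a Polycomb protein gene on the opposite strand whose annotation overlaps that of Apobec3, was also higher in B cells, at 56.7 ± 5.49 (SD, n = 6) against 39.5 ± 5.27 (SD, n = 6). Whether the quantification used the strand of the reads is not given in the sources used here, and the part of such overlap in either value was not tested.

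Samhd1 (ENSMUSG00000027639.11, chromosome 2, 157097533 to 157135265, minus strand) was likewise higher in B cells, but by less. It ran from 210.3 over a median of 229.8 to 243.6 in B cells and from 140.2 over 155.8 to 170.8 in T cells, without overlap. The ratio of the means was 1.46 and the log2 fold change 0.55 (SE 0.07, limma adjusted p = 6.9e-06). In both cell types Samhd1 was among the most abundant transcripts, above at least 96.4% of tested genes in every library.

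The RNA-directed factors Zc3hav1 and Mov10 were higher in T cells. Zc3hav1 (ENSMUSG00000029826.9, chromosome 6, 38305286 to 38354603, minus strand) ran from 69.3 over a median of 82.95 to 89.3 in B cells and from 116.5 over 126.2 to 146.2 in T cells, a ratio of T to B means of 1.61. Mov10 (ENSMUSG00000002227.10, chromosome 3, 104794836 to 104818563, minus strand) ran from 5.22 over 6.61 to 7.36 in B cells and from 9.83 over 10.6 to 11.3 in T cells, a ratio of 1.62. The libraries of the cell types did not overlap for either gene. Their log2 fold changes were -0.68 (SE 0.08) and -0.62 (SE 0.07), with limma adjusted p of 7.2e-06 and 4.4e-06. When library totals were all set to 1000000, both kept their direction but were not past the threshold (log2 fold change -0.30, adjusted p = 0.21, and -0.29, adjusted p = 0.19).

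Adar (ENSMUSG00000027951.11, chromosome 3, 89715022 to 89753446, plus strand) was the only member not past the threshold between the cell types in the reported fit. It ran from 46.5 over a median of 52.7 to 59.1 in B cells and from 49.0 over 50.5 to 53.0 in T cells, so that the T cell values fell within the range of the B cell values. The log2 fold change was 0.06 with a 95% interval of -0.06 to 0.18 (limma adjusted p = 0.36). Under median-ratio scaling the difference passed the threshold towards B cells, at 0.17 (adjusted p = 0.013).

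The nucleases that remove immunostimulatory DNA and hybrids behaved differently from each other. Trex1 (ENSMUSG00000049734.8, chromosome 9, 109057933 to 109059734, minus strand) ran from 16.3 over a median of 17.6 to 18.5 in B cells and from 5.51 over 8.39 to 10.6 in T cells. All B cell libraries were above all T cell libraries, with a ratio of the means of 2.09 and a log2 fold change of 1.00 (SE 0.08, limma adjusted p = 1.8e-07). Trex1 lies within the annotated span of Atrip, a checkpoint protein gene on the same strand, and reads can be shared between them. Atrip itself went the other way, at 12.2 ± 0.958 (SD, n = 6) in B cells against 14.0 ± 0.805 (SD, n = 6) in T cells, with a log2 fold change of -0.19 (limma adjusted p = 0.016).

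Rnaseh2b (ENSMUSG00000021932.8, chromosome 14, 62292589 to 62372992, plus strand) was nearly level, from 7.64 over a median of 8.33 to 9.54 in B cells and from 9.45 over 9.60 to 10.0 in T cells, with overlap at the upper end of the B cell range. The log2 fold change of -0.16 (SE 0.05, limma adjusted p = 0.018) depended on the scaling between libraries, with -0.06 (adjusted p = 0.31) under median-ratio scaling and 0.19 (adjusted p = 0.42) with equal totals. The other subunits of the enzyme were compared within libraries, where no scaling enters. Rnaseh2a, the catalytic subunit, had 15.8 ± 1.15 (SD, n = 6) in B and 20.7 ± 2.18 (SD, n = 6) in T cells, and Rnaseh2c had 22.4 ± 1.87 and 25.4 ± 2.48. The ratio of Rnaseh2b to Rnaseh2c was 0.306 to 0.435 in B and 0.334 to 0.453 in T cells, a log2 difference of 0.00 (SE 0.10, exact two-sided permutation p = 0.98). That of Rnaseh2b to Rnaseh2a was 0.483 to 0.596 in B and 0.419 to 0.559 in T cells, a log2 difference of 0.21 (SE 0.09, exact permutation p = 0.045, adjusted over the 3 ratios tested 0.068). With 1 library left out, the adjusted p of the latter ran from 0.029 to 0.13 in the same exact permutation test. The lowest was without female T library 6, where the log2 difference was 0.26.

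The DNA sensor and its adaptor had different profiles. Mb21d1 (ENSMUSG00000032344.12, chromosome 9, 78430526 to 78443237, minus strand) ran from 0.369 over a median of 0.491 to 0.673 in B cells and from 2.38 over 2.72 to 2.96 in T cells. These are low levels, above 4.0% to 5.7% of tested genes in B cells and 21.6% to 25.4% in T cells, but the ranges were far apart. The bounds that the authors give around each value were separate for all 36 pairs of a B and a T cell library, although the upper bound reached 2.84 times the lower. The ratio of T to B means was 5.46, and the log2 fold change on the scale of adjusted TPM + 1 was -1.31 (SE 0.07, limma adjusted p = 1.5e-09), which understates the change of so low a gene.

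Tmem173 (ENSMUSG00000024349.9, chromosome 18, 35733679 to 35740554, minus strand) was expressed at a higher level in both cell types, from 30.4 over a median of 32.5 to 39.2 in B cells and from 34.3 over 38.1 to 41.8 in T cells. These ranges overlapped, and the log2 fold change was -0.18 (SE 0.07, limma adjusted p = 0.039). The call did not last under other settings. It was lost in 8 of the 12 fits that left out 1 library (female B 1 or 3, male B 2 or 3, female T 4 or 5, or male T 5 or 6), where the adjusted p ranged from 0.0051 to 0.097. It was also lost with the replicate block (limma adjusted p = 0.081) and with no filter on low values (adjusted p = 0.058). The same held under median-ratio scaling (-0.07, adjusted p = 0.33), quantile normalization (-0.13, adjusted p = 0.073) and equal totals (0.19, adjusted p = 0.42). Within libraries, the ratio of Mb21d1 to Tmem173 was 0.0113 to 0.0221 in B cells and 0.0695 to 0.0750 in T cells, without overlap. The log2 difference was -2.29 (SE 0.16), with an exact two-sided permutation p of 0.0022, the smallest that 6 against 6 libraries can give, and 0.0065 when adjusted over the 3 ratios. Tmem173 differed little between the cell types, so this ratio mainly restates the difference of Mb21d1. It is not separate support for that difference.

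Mavs (ENSMUSG00000037523.8, chromosome 2, 131234063 to 131248025, plus strand) was higher in B cells, and varied most among them relative to its mean. It ran from 9.75 over a median of 12.4 to 20.7 in B cells, the highest being male B library 2, and from 7.12 over 7.49 to 7.94 in T cells. The ranges did not overlap, the ratio of the means was 1.78 and the log2 fold change 0.72 (SE 0.14, limma adjusted p = 0.00041). Without male B library 2 it was 0.58 (adjusted p = 0.00016).

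**Figure D2:**
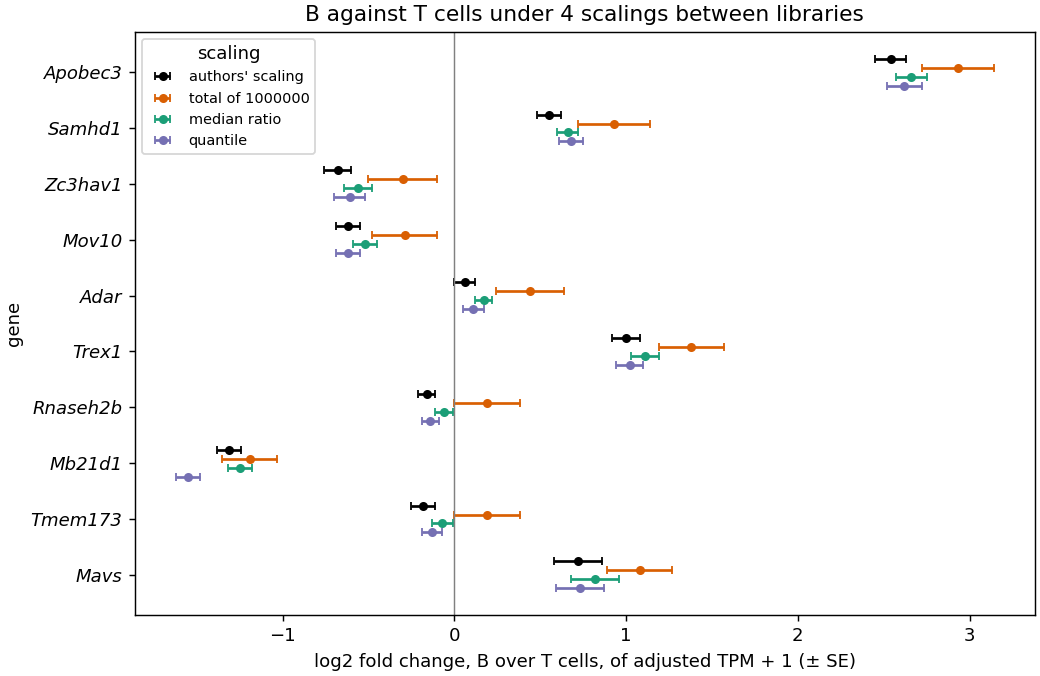
Log2 fold change of adjusted TPM + 1, B over T cells, with SE bars, for each gene under 4 scalings between libraries. Apobec3, Samhd1, Trex1 and Mavs stay to the right of 0 and Mb21d1, Zc3hav1 and Mov10 to the left under all 4, whereas Tmem173 and Rnaseh2b lie at 0.19 with equal totals and below 0 under the other 3.

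The scaling between libraries set the sign only of the small differences. Over all tested genes the median difference was -0.09 with the deposited scaling, 0.01 when median ratios were equalised and 0.25 with equal totals, on the log2 scale. Relative to that median, Apobec3 was at 2.63, 2.64 and 2.67, and Mb21d1 at -1.23, -1.26 and -1.44. Tmem173 was at -0.10, -0.09 and -0.06, and Rnaseh2b at -0.07 under all 3.

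Within each sex the order was the same for the 7 members without overlap. This follows from their lack of overlap over both sexes and is not separate support. Apobec3 was 5.94 times higher in B than in T cells in females and 5.82 times in males, and Mb21d1 was 5.96 and 5.05 times higher in T cells. Trex1 was 2.50 times higher in B cells in females and 1.80 times in males. Tmem173 and Rnaseh2b, which overlapped over both sexes, did not overlap in males, where they were 1.16 and 1.20 times higher in T cells. In females they overlapped, at 1.11 and 1.06 times. The share of all tested genes without overlap in males was not examined, so this has no background beside it. For neither gene was the difference between sex effects past the threshold. It was 0.06 (SE 0.15, unadjusted limma p of 0.68) for Tmem173 and 0.16 (SE 0.11, unadjusted limma p of 0.17) for Rnaseh2b.

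Between females and males no member was past the threshold in the reported fit. In B cells 0 of the 10 members were past the threshold, against 0.144% of all tested genes, and the 3 female and 3 male libraries overlapped for every member, whereas 7.2% of tested genes had no overlap. Unadjusted, 2.98% of all tested genes had a p under 0.05 in B cells and 2.55% in T cells. In T cells 0 members were past it, against 0.104%, and Trex1 alone had no overlap between the sexes, against 8.49% of tested genes. The female T cell values of Trex1 were 8.15, 5.51 and 7.18 in libraries 4, 5 and 6, and the male values were 10.6, 8.64 and 10.5. Every male library was above every female one, and in both sexes library 5 was the lowest. The log2 difference was -0.47 (SE 0.12), with an unadjusted p of 0.0017 and a limma adjusted p of 0.56, and with the libraries' numbers as a block the adjusted p was 0.18. With no filter on low values it was 0.017, a setting in which 10607 of 41128 genes were called. In B cells the female libraries had 17.3 ± 1.09 (SD, n = 3) and the male libraries 17.8 ± 0.379 (SD, n = 3) of Trex1. The difference between these sex effects was 0.43 (SE 0.17, 95% interval 0.07 to 0.79, unadjusted p of 0.024, limma adjusted p = 1.0). Atrip, which overlaps Trex1, differed by -0.04 between the sexes in T cells (unadjusted limma p of 0.64). Of the other members, Mavs had the widest interval for the sexes in B cells, -0.64 to 0.20 on the log2 scale, so a sex difference of that size could not be seen here. For the difference between sex effects 0 members were past the threshold, against 0.0% of all tested genes, of which 295 (2.36%) had an unadjusted p under 0.05.

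The libraries of a cell type also differed from each other, and some members had an extreme value in the same library. In B cells male library 3 was the lowest of 6 for 3 of the 10 members, Mov10, Adar and Zc3hav1, at 5.22, 46.5 and 69.3. How many of all tested genes were lowest in it was not examined, so this count lacks a background. In this library the summed level of the interferon response genes Isg15, Ifit1, Ifit3, Ifi44, Usp18, Irf9 and Rtp4 was also the lowest, at 62.2 against 75.2 to 101.0 in the other B cell libraries. The same was true of the cell cycle genes Cdk1, Ccnb1, Top2a and Mki67, at 22.1 against 27.5 to 48.2, and the part of either in these values was not tested. Female B library 3 had the highest sum of the interferon response genes and was the highest for 5 of the 10 members. The share of all tested genes that were highest in this library was not examined, so this count has no background beside it. Female B library 3 also had the lowest total of adjusted TPM of all libraries, 561020, and the highest protein-coding share, 67.98%. The part of a library-wide difference in its member values was not tested. In T cells the number 6 libraries were the highest of their sex for Apobec3, Samhd1 and Zc3hav1. Apobec3 was at 53.2 and 58.6 there against 38.6 to 48.0 in the other T cell libraries. For 6 of the 10 members the highest library had the same number in female and male T cells, and for 5 the lowest, against 54.8% and 49.3% of all tested genes, so this pattern was not particular to the members. The B cell marker sum was 4.91 in female T library 6 and 2.43 in male T library 6, against 0.896 to 1.82 in the other T cell libraries, and its part in these values was not tested.

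**Figure D3:**
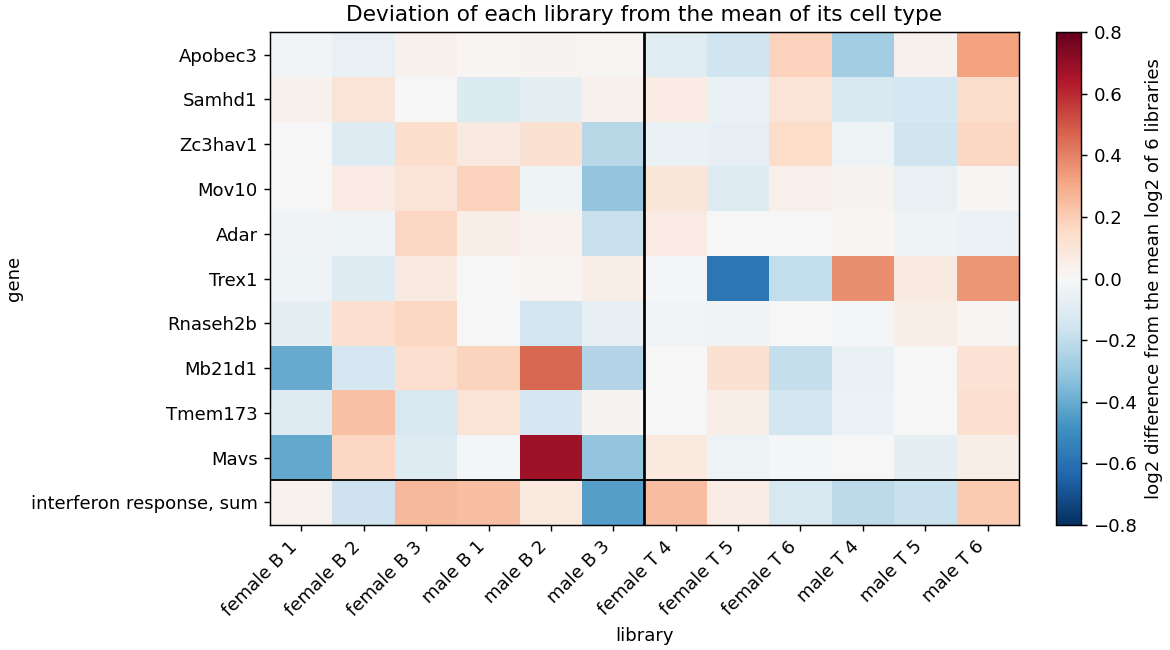
Log2 difference of each library from the mean of its cell type for the 10 genes and for the summed interferon response genes, with B cells left and T cells right of the line and red for values above the mean. Male B library 3 is below the mean for Mov10, Adar, Zc3hav1 and the interferon sum, and male B library 2 stands out for Mavs.

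The 7 interferon response genes of that sum, which are induced downstream of these sensors, each passed the threshold with a higher level in T cells, against 41.6% of tested genes, with a median log2 fold change of -0.85. Other interferon-induced genes did not all share this direction. Ifih1, Zbp1, Irf7, Oas3, Bst2 and Oas2 did, at -2.21, -1.39, -1.21, -1.07, -1.04 and -0.58. Mx1, Oasl1, Mx2 and Eif2ak2 were higher in B cells, at 1.69, 1.07, 0.75 and 0.60. Oas1a, Rsad2 and Isg20 were not past the threshold (limma adjusted p = 0.16, 0.56 and 0.98). The 7 genes thus do not stand for the interferon response as a whole. Their sum was 62.2 to 101.0 in B cells and 128.7 to 176.8 in T cells. Zc3hav1, Mov10 and Mb21d1, which interferon is known to induce, were higher in the same cells, whereas Apobec3, Samhd1 and Trex1, which can also respond to it, were higher in B cells. The part of interferon signalling in these differences was not tested.

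Other genes of these pathways were taken from 5 lists, of which 78 of 79 genes were in the table and 68 were tested. Between B and T cells 33 were higher in B, 22 were higher in T and 13 were not past the threshold. Of all tested genes 31.4% were higher in B and 41.6% in T cells, and they had a median log2 fold change of -0.09, and the counts of each list below stand beside these shares. No gene of these lists (0 of 68) was past it between the sexes in either cell type, against 0.144% of all tested genes for B cells and 0.104% for T cells. Dnase1l3, Ifi205 and Ifitm3 entered the test only through the B cells, since they were under 1 in every T cell library, and each is among the genes counted as higher in B cells. Among the nucleases, 3 of 9 tested genes were higher in B cells and 5 in T cells (median -0.17 on the log2 scale). Dnase2a, which digests DNA in lysosomes, had a log2 fold change of 2.46, from 3.42 ± 0.464 (SD, n = 6) in T cells to 23.4 ± 1.99 (SD, n = 6) in B cells. Dnase1l3, a secreted DNase, had 2.65 ± 0.596 (SD, n = 6) in B cells and did not exceed 0.111 in a T cell library. Rnaset2a and Rnaset2b, near-identical copies whose reads may be shared, were higher in T cells, with log2 fold changes of -1.02 and -1.43.

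Among the deaminases 3 of 5 tested genes were higher in B cells and 0 in T cells (median 0.15 on the log2 scale). Apobec1, the cytidine deaminase that edits apolipoprotein B RNA, had 22.6 ± 1.20 (SD, n = 6) in B and 4.61 ± 0.476 (SD, n = 6) in T cells, a ratio of 4.90 beside the 5.88 of Apobec3. Proliferation genes (Cdk1, Ccnb1, Top2a, Mki67) were also higher in B cells, with sums of 22.1 to 48.2 against 3.47 to 5.47, and their part in these values was not tested. Adat3 and Adat1, which act on transfer RNA, had small log2 fold changes of 0.35 and 0.15, and Adat1 was lost in 8 of the 12 fits that left out 1 library.

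Downstream of and beside the DNA sensor, 7 of 16 tested genes were higher in B cells and 7 in T cells (median -0.08 on the log2 scale). The largest differences were opposite. Irf5, an interferon regulatory factor, had a log2 fold change of 5.73, with 108.5 ± 6.70 (SD, n = 6) in B and 1.08 ± 0.281 (SD, n = 6) in T cells. Ikbke, a kinase related to Tbk1 that phosphorylates IRF factors, had one of -4.19, with 4.61 ± 0.816 in B and 100.8 ± 7.70 in T cells. Enpp1, which hydrolyses the cGAS product cGAMP, and Aim2, a DNA sensor of inflammasomes, were higher in B cells, with log2 fold changes of 1.51 and 1.42. Tbk1 and Irf3 were the 2 tested genes not past the threshold, Tbk1 at 30.4 ± 1.55 and 33.1 ± 1.72 and Irf3 at 59.9 ± 4.46 and 62.2 ± 2.83 in B and T cells.

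Around the RNA adaptor, 8 of 18 genes were higher in B cells, 5 were higher in T cells and 5 were not past the threshold, with a median of 0.15. Ifih1 (MDA5), a sensor that signals through Mavs, had a log2 fold change of -2.21, with 2.39 ± 0.452 (SD, n = 6) in B and 14.6 ± 1.14 (SD, n = 6) in T cells, and thus opposite to that of Mavs. Ddx58 (RIG-I), the other such sensor, had 59.1 ± 3.29 and 63.1 ± 4.07 and was not past the threshold (limma adjusted p = 0.14). Oas3, an oligoadenylate synthetase gene, was higher in T cells, with a log2 fold change of -1.07, whereas its relative Oasl1 was higher in B cells, at 1.07. The ubiquitin ligase gene Trim25 was also higher in B cells, at 1.11.

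Of the other restriction factors, 12 of 20 tested genes were higher in B cells and 5 in T cells (median 0.29 on the log2 scale). Serinc3 and Serinc5, membrane proteins that lower the infectivity of retroviral particles, were both higher in B cells, Serinc3 at 499.7 ± 24.5 (SD, n = 6) against 76.6 ± 3.07 (SD, n = 6) and Serinc5 at 20.2 ± 4.76 against 6.33 ± 0.686. The dynamin-like GTPase gene Mx1 was also higher in B cells, at 1.69, whereas Bst2 (tetherin), which holds budding virions at the cell surface, was higher in T cells, at -1.04. Each list gene named for the size of its change, other than Adat1, was past the threshold in each alternative in which it was tested, whereas Rnaseh2a lost its call with equal totals and Rnaseh2c in several alternatives.

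**Figure D4:**
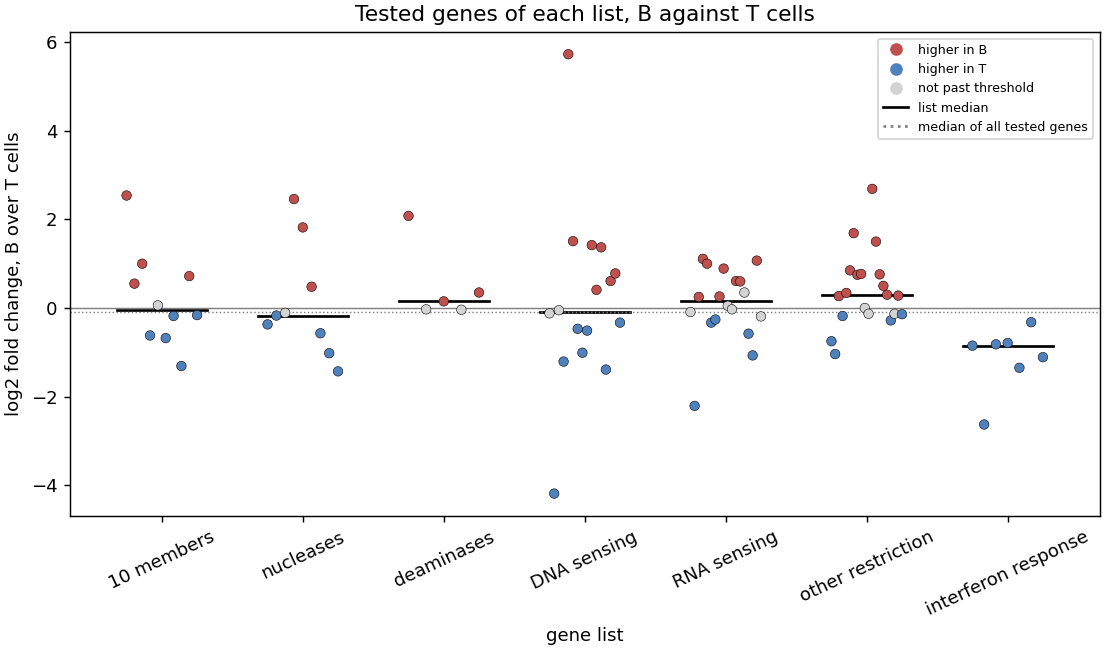
Log2 fold change, B over T cells, of each tested gene in the 10 members, in 5 pathway lists and among interferon response genes, red where higher in B, blue where higher in T and grey where not past the threshold, with black lines for list medians. Calls in both directions occur in the members and in 4 of the 5 pathway lists, and the 7 interferon response genes all lie below 0.

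For each member past the threshold, the tested gene with the most similar profile over the 12 libraries was identified by Pearson's r of log2 values. It was Ncf1, a subunit of the phagocyte oxidase, for Apobec3 (r = 0.998), and Slc39a14, a metal transporter, for Mb21d1 (r = 0.997). For the other members r was between 0.915 and 0.987, with Fam73a for Samhd1, Dusp10 for Mov10 and Pmepa1 for Zc3hav1. The 12 libraries fall into 2 cell types, so these values mainly describe the separation of B from T cells.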

How the data were processed

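RNA was taken from sorted or enriched spleen cells, depleted of ribosomal RNA and made into stranded libraries, per the labels. The authors deposited one signal per gene and library, named adjusted TPM, with a lower and an upper bound. The submitters' processing notes list Trim Galore, FastQC, STAR and mm10. The tool behind the signal, its rescaling and the level of the bounds are not given in the sources used here. Whole reads cannot be recovered from it, so no count test was used, and precision was read from replicates and from the bounds.

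Gene IDs were matched without version to GENCODE M21 on GRCm38, the assembly of mm10 (40254 of 41128 IDs). The 12520 genes reaching 1 in 3 or more libraries were tested with limma 3.58.1 in R 4.3.3 on log2(value + 1), with 1 coefficient per group over all 12 libraries, a mean-variance trend and Benjamini-Hochberg adjustment at 0.05. The labels give no separate cultures or animals for the pools, so p-values measure the spread between these libraries. Ratios within libraries were tested by exact permutation. Other steps used Python 3.11.15, scipy 1.17.1 and matplotlib 3.10.9. The fit was tried on simulated libraries that were independent of each other, which does not cover the deviations that same-numbered T cell libraries share.

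Female and male libraries share numbers within a cell type. Deviations of same-numbered libraries correlated with r of 0.721, 0.548 and 0.521 in T cells, where by this check of the data alone the numbers pair the libraries, and with r of -0.169, -0.038 and -0.337 in B cells, where they do not. The reported fit has no block, and the fit with one is an alternative. Some list genes are not reported here and entered no list count or sum. The members and lists were chosen with earlier results of these data known. All members are named, and from each pathway list up to 4 called genes with the largest absolute fold change, plus the other RNase H2 subunits. Further list genes (Tbk1, Irf3, Irf7, Zbp1, Ddx58, Mx2, Eif2ak2, Oas1a, Oas2, Rsad2, Isg20, Ifi205 and Ifitm3) were named after their values were seen. Neutrophil, natural killer, plasma and red cell markers summed to at most 2.57, 0.883, 7.67 and 198.2 in a library.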

Additional observations from a re-analysis of the deposited data

How the results depend on the processing

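Of the members, Apobec3, Samhd1, Trex1, Mb21d1 and Mavs were past the threshold between B and T cells in every alternative that tested them (Mb21d1 did not enter with a filter at 5), and 8 or 9 members were when any 1 library was left out. With equal totals 5 were, and Tmem173, Rnaseh2b and Rnaseh2c changed sign, each to 0.19. Over all genes, 9134 were past it between B and T cells (8717 to 9193 with 1 library left out), and 24591 with no filter on low values. Of the 9134, 3926 were higher in B cells, and this share was 52.3% under median-ratio scaling and 70.8% with equal totals. Between the sexes in B cells 18 genes were past it (12 to 17 with 1 B cell library left out, 15 to 18 with 1 T cell library left out), 36 with equal totals, 10985 with no filter and 5 in fits of the B cell libraries alone. In T cells 13 genes were past it (9 to 12 with 1 T cell library left out, 11 to 14 with 1 B cell library left out), 23 with equal totals, 24 with a pseudocount of 0.1, 10607 with no filter and 7 with a filter at 5. For the difference between sex effects 0 genes were past it by limma (0 to 3 with 1 library left out, the 3 without female T library 6), 16 with equal totals, 1 with quantile normalization, 1 with a pseudocount of 0.1, 3 without the trend and 11201 with no filter. The median log2 difference of all genes between females and males in T cells was 0.00, and 0.25 with equal totals. The cause of these shifts was not tested. With 1 library left out, the log2 difference of the ratio of Rnaseh2b to Rnaseh2c ran from -0.04 to 0.07, that of Rnaseh2b to Rnaseh2a from 0.18 to 0.26 and that of Mb21d1 to Tmem173 from -2.40 to -2.21.

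With the replicate block, 9312 genes were past the threshold between B and T cells, 14 between the sexes in B cells, 10 in T cells and 0 when these sex effects were compared. In the T cell libraries alone with that block, 5 genes were past it, and 5 in the B cell libraries alone, both chosen after seeing the data. Among the members only the call of Tmem173 changed with the block. The unknown depth limits what can be said of Mb21d1 in B cells, where the bounds were widest.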
